A study of Zea mays with 6 samples.

Results

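The genes described here were 4 transcription factors of the maize leaf, golden2 (g2), its paralog glk1, scr1 and its paralog scr1h, taken as the 4 rows Zm00001d039260 (g2), Zm00001d044785 (glk1), Zm00001d052380 (scr1) and Zm00001d005029 (scr1h) of the 44146 identifiers measured. All 4 identifiers were found in every library. The rule names identifiers and uses no measured value, although it was written with earlier results of these data known. RNA was sequenced from the sheath of leaf 2 of untreated maize seedlings at the stage of 3 leaves, in 3 libraries of the lncRNA knockout GARR2KO and 3 of the wild type WT. In grasses the sheath forms the base of the leaf and encloses the stem, and GARR2 is a long noncoding RNA. How the knockout was made, how many independent lines it stands for and whether the WT plants were siblings were not given in the labels. The replicates were labelled biological, without saying which plants went into each, so the p-values below measure the spread between these libraries. The names of the 4 genes came with the list of members. The deposited tables hold identifiers only, and 0 of the 44146 identifiers matched the gene table at hand, so the pairing of name and identifier was not tested, no coordinates are given, and the tissue label was not checked against marker genes.

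The GOLDEN2-like (GLK) proteins are GARP-family transcription factors that switch on nuclear genes for chlorophyll synthesis and light harvesting, and so drive the development of chloroplasts. In maize leaf blades the pair is known to be divided between the cell types of Kranz anatomy, the wreath of bundle sheath around each vein with mesophyll outside it: g2 acts in bundle sheath chloroplasts, and glk1 transcripts accumulate mainly in mesophyll. SCARECROW (SCR) proteins are GRAS-family regulators that bind SHORT-ROOT proteins and set the asymmetric divisions of ground tissue, first described in the Arabidopsis root. The maize genes scr1 and scr1h are duplicates that act redundantly, and leaves that lack both have disturbed Kranz patterning.

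Of the 3 genes that could be tested, scr1h was higher in GARR2KO sheaths, by 33.7% in mean FPKM, and g2 and scr1 did not pass the test. The remaining gene, glk1, was too low for the main test, and its values in GARR2KO lay below those in WT. Within each duplicate pair, the ratio of scr1h to scr1 and the ratio of g2 to glk1 were higher in every GARR2KO library than in any WT library. How often the ratio of other gene pairs separates in this way was not computed; of single genes, 56.2% of those tested and 44.8% of those above 0 in any library had no overlap between the genotypes. The exact permutation test used for the ratios cannot go below p = 0.1 with 3 libraries against 3, so it could not pass a threshold of 0.05.

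The comparison of GARR2KO with WT asks whether these developmental regulators differ in the sheath when the lncRNA is knocked out. Levels are in FPKM, fragments per kilobase of gene scaled to library size, as the authors deposited them. Each gene was tested in 1 limma-trend fit on log2(FPKM + 1) over all 21531 genes that averaged 1 FPKM or more, with Benjamini-Hochberg adjusted p under 0.05 as the threshold, two-sided. Its fold changes refer to log2(FPKM + 1) and are compressed for genes of low level. In that fit 44.2% of all tested genes were called, 20.1% as higher and 24.1% as lower in GARR2KO. Among the 4 genes, 3 were tested and 1 was called, a share that cannot be set apart from this background with so few genes. The totals by which the FPKM are scaled, recovered from the values, ran from 18476907 to 20230916 in GARR2KO and from 17656864 to 20836571 in WT.

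Among the GLK genes, g2 was the one expressed at an appreciable level. It had 12.9, 12.0 and 13.4 FPKM in GARR2KO replicates 1 to 3, against 12.1, 10.3 and 12.1 FPKM in WT replicates 1 to 3. The lowest GARR2KO value lay inside the WT range, while the other two lay above it. Means were 12.8 ± 0.69 FPKM in GARR2KO and 11.5 ± 1.04 FPKM in WT (SD, n = 3 each). The log2 fold change of g2 was 0.14 (95% interval -0.03 to 0.31), with an adjusted p of 0.165 in limma-trend, so a difference beyond the spread between libraries was not shown. The upper end of the interval corresponds to 1.24-fold on that scale. The call depended on the method: limma-voom on recovered reads, which scales each library by its summed gene reads, gave a log2 fold change of 0.20 and an adjusted p of 0.0351, where 49.3% of all genes were called. The WT spread of g2 rested on WT replicate 2, its lowest library, without which the log2 fold change of g2 was 0.07.

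The level of glk1 was close to the limit of detection. It was listed at 0.276, 0.332 and 0.232 FPKM in GARR2KO replicates 1 to 3, which is 10, 11 and 8 reads. In WT replicates 1 to 3 it was listed at 0.375, 0.443 and 0.569 FPKM, which is 14, 15 and 18 reads. All 3 GARR2KO values of glk1 lay below all 3 WT values, as they did for 23.0% of the 31076 genes above 0 in any library. Means were 0.280 ± 0.050 FPKM in GARR2KO and 0.462 ± 0.098 FPKM in WT (SD, n = 3 each), a ratio of 0.606. The summed reads, 29 in GARR2KO and 47 in WT, gave a rate ratio of 0.611 with an exact 95% counting interval of 0.371 to 0.991, which covers counting error only. The exact two-sided permutation test of log2 FPKM over the libraries gave p = 0.1, the smallest that 3 against 3 allow.

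A fit with no filter on low values, over 31076 genes of which 31.0% were called, gave glk1 a log2 fold change of -0.19 (95% interval -0.35 to -0.03) and an adjusted p of 0.0764 in limma-trend. The size of this value depended on the pseudocount: with 0.1 FPKM in place of 1 the log2 fold change of glk1 was -0.56 (adjusted p = 0.126), and limma-voom on reads with no filter gave -0.63 (adjusted p = 0.240), where 35.5% of all genes were called. At this depth a difference in glk1 was therefore not established. The variance of glk1 reads over its Poisson expectation was 0.303 in GARR2KO and 0.715 in WT. Scatter beyond counting was thus not seen, but 3 libraries per genotype with so few reads cannot exclude it.

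**Figure D1:**
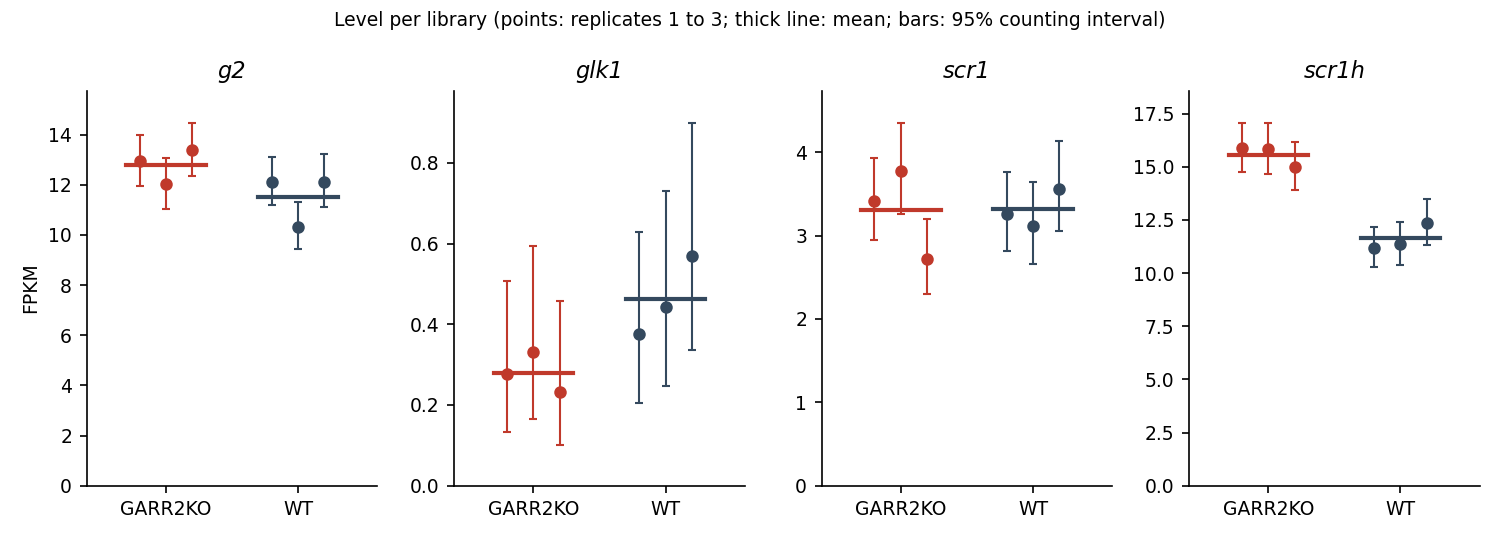
Level of each gene in FPKM (vertical axes from 0, each gene on its own scale) in the 3 GARR2KO and 3 WT libraries, with replicates 1 to 3 from left to right, the mean as a thick line and the exact 95% counting interval of each library as a bar. The 3 GARR2KO values of scr1h, 15.0 to 15.9 FPKM, lie above the 3 WT values, 11.2 to 12.3 FPKM, and those of glk1 lie below the WT values, with wide bars on 8 to 18 reads.

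Of the SCR genes, scr1h was the more abundant and the one that rose. It had 15.9, 15.8 and 15.0 FPKM in GARR2KO replicates 1 to 3, against 11.2, 11.4 and 12.3 FPKM in WT replicates 1 to 3. Every GARR2KO library lay above every WT library, which held for 26.8% of tested genes. Means were 15.6 ± 0.49 FPKM in GARR2KO and 11.6 ± 0.62 FPKM in WT (SD, n = 3 each). The log2 fold change of scr1h was 0.39 (SE 0.0585, 95% interval 0.26 to 0.53), with an adjusted p of 0.00094 in limma-trend, and it stayed between 0.37 and 0.47 with an adjusted p of at most 0.0139 under the 28 other settings that were run. In summed reads, 2092 in GARR2KO and 1545 in WT gave a read rate ratio of 1.34 (exact 95% counting interval 1.26 to 1.43). The change was larger than the counting error and the spread between libraries, and modest among all genes: 25.1% of tested genes had a larger absolute log2 fold change.

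The other duplicate, scr1, had 3.41, 3.77 and 2.72 FPKM in GARR2KO replicates 1 to 3, against 3.26, 3.12 and 3.56 FPKM in WT replicates 1 to 3. The WT values of scr1 lay inside the range of the GARR2KO values. Means were 3.30 ± 0.53 FPKM in GARR2KO and 3.31 ± 0.23 FPKM in WT (SD, n = 3 each). The log2 fold change of scr1 was -0.01 (95% interval -0.25 to 0.23, adjusted p = 0.951, limma-trend), and its sign depended on the scaling and on single libraries. On that scale a fold between 0.839 and 1.18 lies within the interval, and the estimate for scr1h, 1.31-fold, lies outside it. The width of the scr1 interval depends on the pseudocount, which compresses the lower scr1 more. With 0.1 FPKM in place of 1, the scr1h estimate, a log2 fold change of 0.42, still lay outside the scr1 interval. The 95% intervals then overlapped, at -0.33 to 0.30 for scr1 and 0.27 to 0.56 for scr1h. Such a comparison of intervals is not a test of the difference between the duplicates. GARR2KO replicate 3 was the lowest library for scr1, and the variance of its GARR2KO reads was 4.53 times the Poisson expectation, against 0.767 times in WT.

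**Figure D2:**
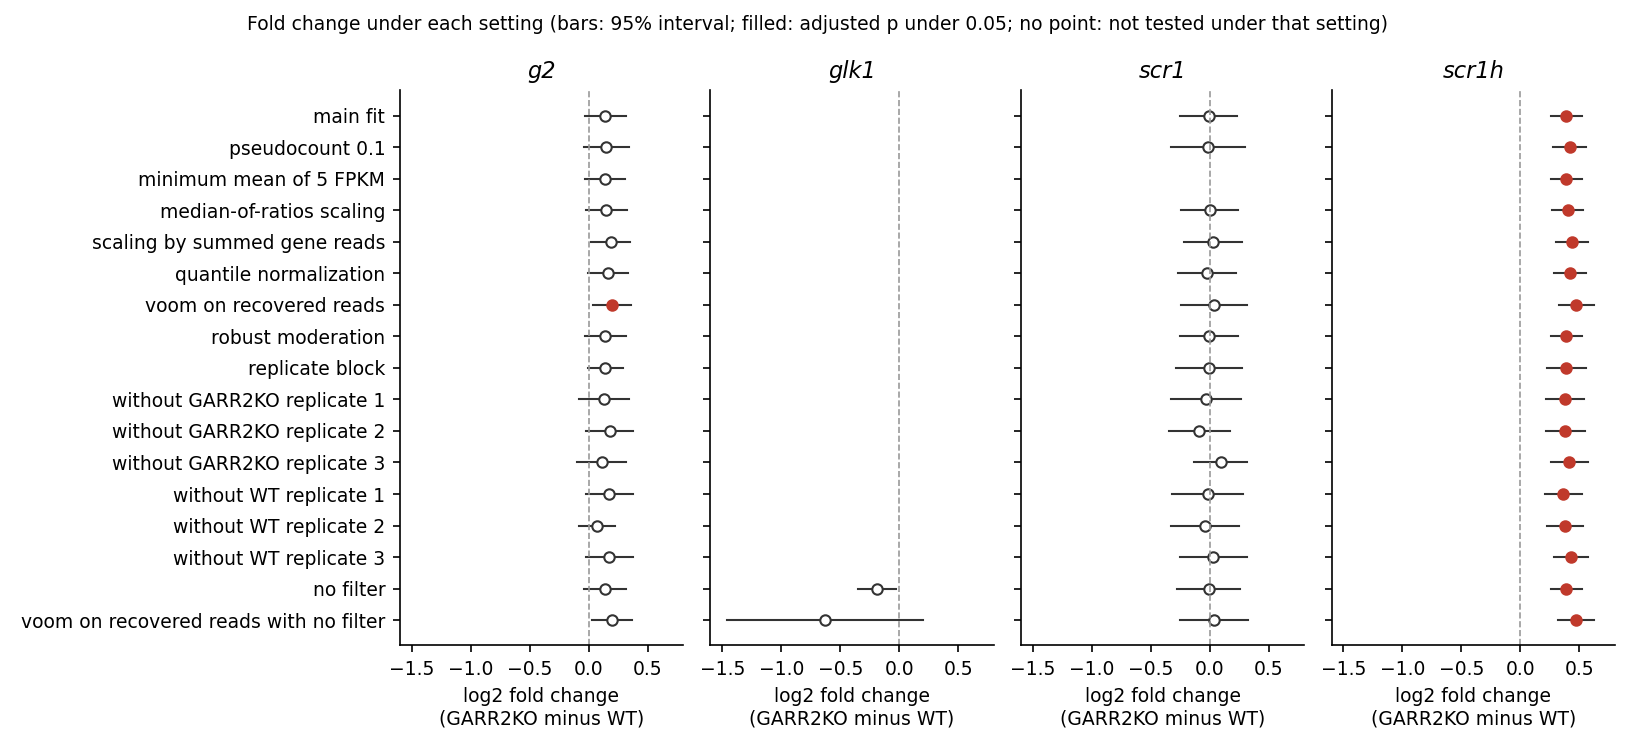
Log2 fold change (GARR2KO minus WT) of each gene under the main limma-trend fit and the other settings, with 95% intervals as bars and filled points where the adjusted p was under 0.05. Every point of scr1h is filled, g2 is filled under voom with the filter only, the scr1 points lie on either side of 0, and glk1 has points only under the settings with no filter.

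Because both duplicates were measured in each library, they were also compared within libraries, where the scaling of a library cancels. In the GLK pair, g2 exceeded glk1 by 47.0-, 36.2- and 57.6-fold in GARR2KO replicates 1 to 3, and by 32.3-, 23.3- and 21.3-fold in WT replicates 1 to 3, on FPKM. The lowest GARR2KO ratio lay above the highest WT ratio. Geometric means were 46.1-fold in GARR2KO and 25.2-fold in WT, a difference of 0.87 on the log2 scale, with SDs of the log2 ratio of 0.34 in GARR2KO and 0.32 in WT (n = 3 each, exact permutation p = 0.1, also after adjustment over the 2 pairs). With 1 FPKM added to both genes, which weighs most on the low glk1, the difference was 0.33. The glk1 share of the summed GLK level was 2.16% ± 0.49 in GARR2KO and 3.86% ± 0.77 in WT (SD, n = 3 each). This ratio carries the counting error of glk1: the odds of a glk1 read against a g2 read, GARR2KO over WT, were 0.551 with an exact 95% counting interval of 0.333 to 0.898.

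In the SCR pair scr1h stood above scr1 in every library. The ratio of scr1h to scr1 was 4.65, 4.19 and 5.51 in GARR2KO replicates 1 to 3, against 3.43, 3.65 and 3.47 in WT replicates 1 to 3. The WT ratios lay close together, and every GARR2KO ratio lay above them. The log2 ratio of scr1 to scr1h averaged -2.25 ± 0.20 in GARR2KO and -1.81 ± 0.047 in WT (SD, n = 3 each), a difference of -0.44 (exact permutation p = 0.1, also after adjustment over the 2 pairs). In read terms, the odds of an scr1h read against an scr1 read, GARR2KO over WT, were 1.34 with an exact 95% counting interval of 1.17 to 1.55. The scr1h share of the summed SCR level was 82.6% ± 1.97 in GARR2KO and 77.8% ± 0.56 in WT (SD, n = 3 each). Thus the call for scr1h and the missing call for scr1 are not by themselves a difference between the duplicates, and the exact test of that difference could not pass with these libraries.

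**Figure D3:**
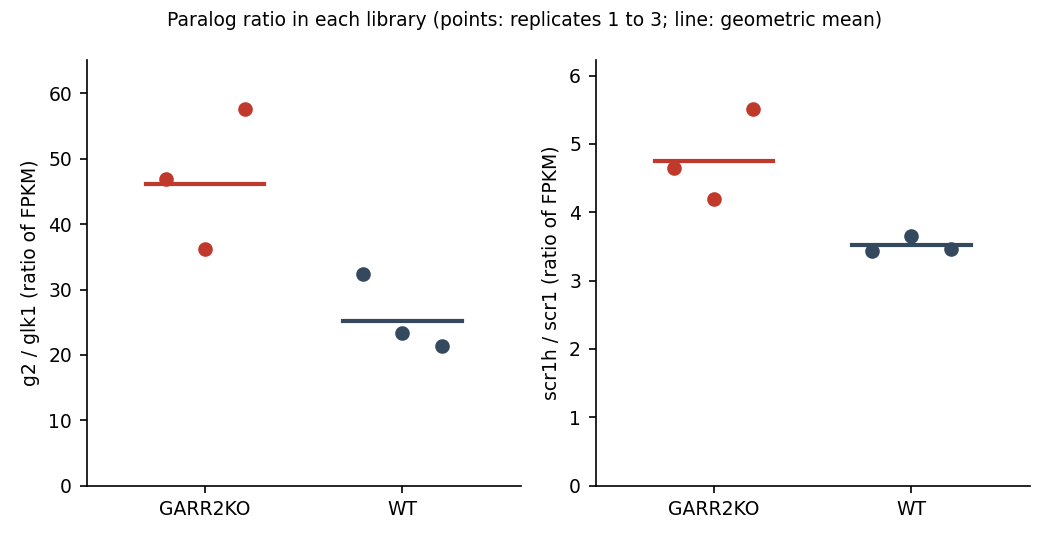
Ratio of g2 to glk1 and of scr1h to scr1 in FPKM (vertical axes from 0) in each GARR2KO and WT library, with the geometric mean as a line. The GARR2KO ratios lie above the WT ratios in both pairs, with geometric means of 46.1 in GARR2KO and 25.2 in WT for g2 to glk1 and of 4.75 in GARR2KO and 3.51 in WT for scr1h to scr1.

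Over all 6 libraries the paralogs of each pair stood at different levels. The mean log2 ratio of g2 to glk1 was 5.09 and that of scr1 to scr1h was -2.03, each with the same direction in 6 of 6 libraries (exact sign-flip permutation p = 0.0312, the smallest that 6 libraries allow, and the same after adjustment over the 2 pairs). With 1 FPKM added to both genes the log2 ratio of g2 to glk1 was 3.26. FPKM is per length, and the lengths recovered from the values were 2447 bp for g2, 1793 bp for glk1, 2753 bp for scr1 and 2321 bp for scr1h. Whether the authors' counting could assign reads to the wrong duplicate was not given in the sources used here. All 24 values were whole reads within 0.002 of a read, so reads split between duplicates as fractions were not seen, while reads shared by them could still have been dropped or counted for one of them.

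The summed level of each pair followed its major member, which makes up most of the sum, so it is a description and not a separate result. The SCR pair summed to 19.3, 19.6 and 17.7 FPKM in GARR2KO replicates 1 to 3, against 14.4, 14.5 and 15.9 FPKM in WT replicates 1 to 3, with no overlap. Means were 18.9 ± 1.0 FPKM in GARR2KO and 14.9 ± 0.83 FPKM in WT (SD, n = 3 each, exact permutation p = 0.1, adjusted over the 2 pairs 0.2). The GLK pair summed to 13.1 ± 0.64 FPKM in GARR2KO and 12.0 ± 1.06 FPKM in WT (SD, n = 3 each, exact permutation p = 0.3), and its libraries overlapped. That difference of 1.08 FPKM was 0.47 FPKM without WT replicate 2, and 1.52 FPKM (exact permutation p = 0.1, with no overlap) when libraries were scaled by summed gene reads. In bulk tissue a change in the number of cells of a type and a change in RNA per cell cannot be told apart.

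The order of the 4 levels was scr1h, g2, scr1 and glk1 in both genotypes by the mean. In GARR2KO each gene lay above the next without overlap. In WT the values of scr1h, 11.2 to 12.3 FPKM, overlapped those of g2, 10.3 to 12.1 FPKM, and the other neighbours in the order did not overlap. Within libraries, scr1h stood at 1.23, 1.31 and 1.12 times the g2 level in GARR2KO replicates 1 to 3 and at 0.923, 1.10 and 1.02 times in WT replicates 1 to 3. Both genes lay in the upper part of the expressed genes: scr1h exceeded 74.1 to 75.5% of the genes above 0 in GARR2KO libraries and 67.3 to 69.2% in WT libraries. The low gene, glk1, exceeded 11.0 to 13.9% in GARR2KO libraries and 14.9 to 17.7% in WT libraries.

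**Figure D4:**
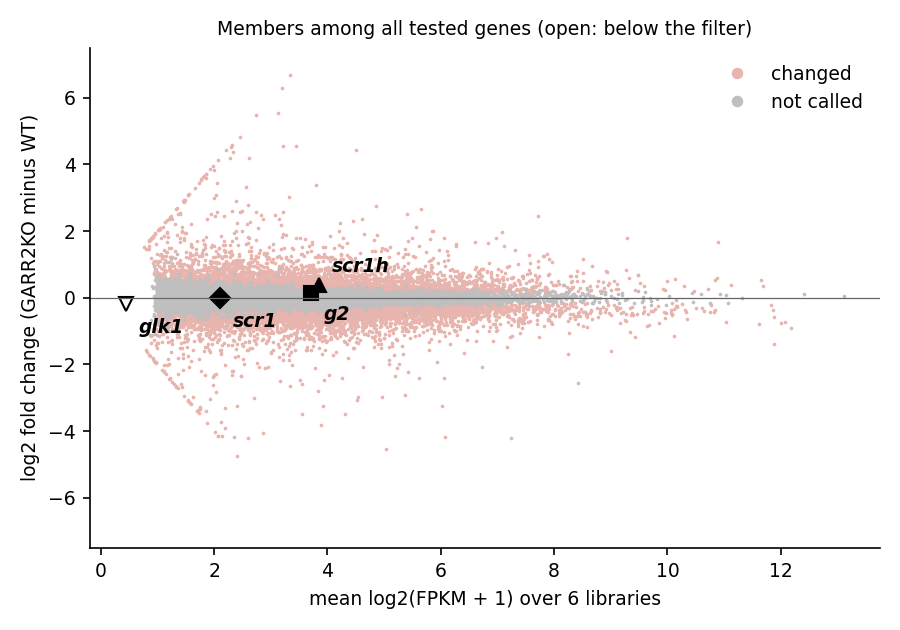
Log2 fold change (GARR2KO minus WT) against mean log2(FPKM + 1) for the 21531 tested genes, pink where called and grey where not, with the 4 genes marked and glk1 open because it lay below the filter. The 0.39 of scr1h is modest beside the spread of all genes, g2 and scr1 lie in the grey band, and glk1 lies at the low end.

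Genes were also compared by profile, as the root mean square difference of log2(FPKM + 1) over the 6 libraries after removing each gene's own mean. The levels of these nearest genes are a description, since the likeness fixes their direction. The nearest to scr1h was Zm00001d017987, at a distance of 0.025, where the median over 21530 genes was 0.240. It had 29.6 ± 0.71 FPKM in GARR2KO and 22.7 ± 0.63 FPKM in WT (SD, n = 3 each, log2 fold change 0.37). The nearest to g2 was Zm00001d046745 (distance 0.022), with 35.2 ± 2.44 FPKM in GARR2KO and 31.7 ± 2.63 FPKM in WT. The nearest to scr1 was Zm00001d017823 (distance 0.032), with 10.8 ± 1.20 FPKM in GARR2KO and 11.1 ± 0.83 FPKM in WT. For glk1 it was Zm00001d040981 (distance 0.017), with 5.45 ± 0.16 FPKM in GARR2KO and 6.34 ± 0.45 FPKM in WT, a match in which the low level of glk1 compresses its log2 differences. Many genes lay nearly as close: within 0.05 there were 68 for scr1h, 126 for g2, 123 for glk1 and 13 for scr1. The files do not pair these identifiers with names.

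The tested genes next to each member by the number in the identifier were read as a local background, 10 on each side, without assuming that neighbouring numbers are neighbouring genes. Around scr1h 5 of 20 were called, 1 higher and 4 lower in GARR2KO, with a median log2 fold change of -0.11, while scr1h itself was at 0.39. Around glk1 11 of 20 were called, 4 higher and 7 lower, with a median of -0.16, and 4 of them changed at least 2-fold, 1 higher and 3 lower, where 4.01% of all tested genes were called with a change of 2-fold or more. Around g2 12 of 20 were called (4 higher and 8 lower, median -0.04) and around scr1 6 of 20 (4 higher and 2 lower, median near 0 at -0.004), and none of the neighbours of g2, scr1 or scr1h changed 2-fold, although the lowest near scr1h came close at a log2 fold change of -1.0. Over all tested genes 44.2% were called and the median was -0.01. The log2 fold changes of the glk1 neighbours ran from -1.85 to 1.08. The part of this stretch in the glk1 values was not tested.

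**Figure D5:**
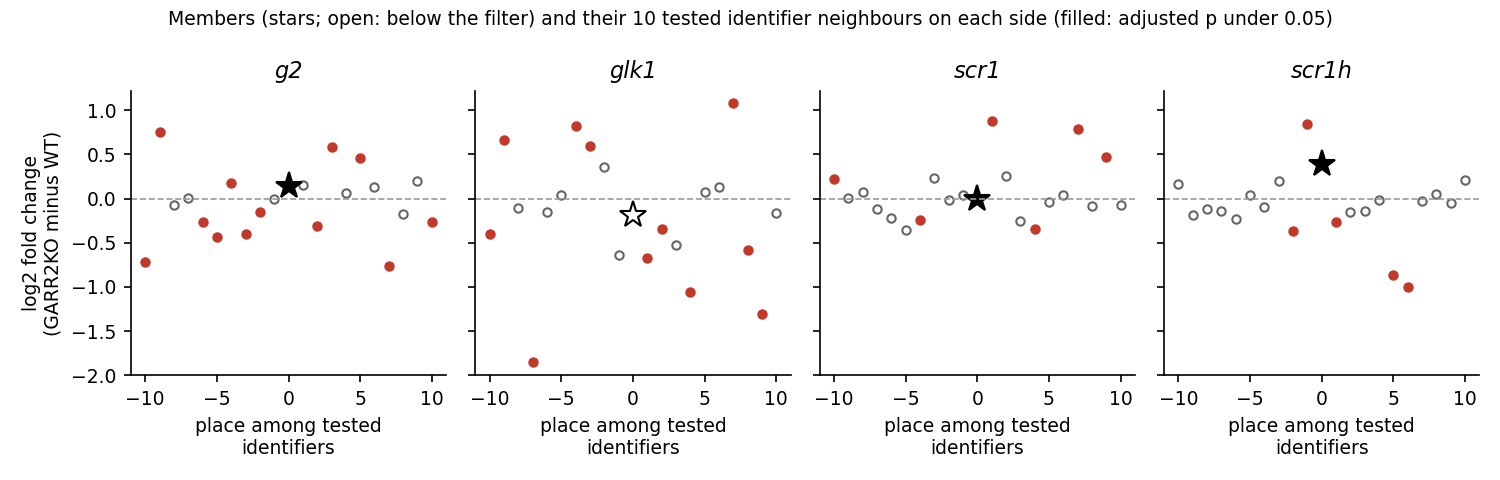
Log2 fold change (GARR2KO minus WT) of each member (star, open for glk1, which lay below the filter) and of its 10 tested identifier neighbours on each side, filled where the adjusted p was under 0.05. The neighbours of glk1 spread most widely, between -1.85 and 1.08, and the rise of scr1h stands among neighbours with a median of -0.11.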

How the data were processed

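The authors deposited 1 table per library, with 1 value per gene, read here as FPKM: the files carry no header, and per the submitters' processing notes Cufflinks, Cuffdiff, TopHat2 and the build B73 RefGen_v4 were used. Versions, annotation release, filters and strand are not stated there. Low values were whole multiples of a step, from which scaling totals, gene lengths and reads were recovered: all 6 values were whole, within 0.002 of a read, for 31076 of 31076 genes above 0, which genes seen in few libraries pass easily. Summed gene reads were 94.8 to 96.2% of the recovered totals in GARR2KO and 97.0 to 100.5% in WT. In WT replicate 3 the sum, 17750600, exceeded the recovered total, 17656864. Either that total does not hold every gene read or some recovered reads are too high, which was not tested. Voom and the scaling by summed gene reads rest on these sums. The counted unit, a read or a pair, is unknown.

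Genes were tested with limma-trend from limma 3.58.1 under R 4.3.3. Exact permutation and sign-flip tests and exact 95% counting intervals used scipy 1.17.1. The counting intervals were Poisson for single libraries, Clopper-Pearson for read rate ratios and conditional (Fisher) for the odds of reads. Those exact intervals cover counting error only. The 95% intervals of log2 fold changes come from the limma fits and reflect the spread between libraries. The recovery of reads and the limma-trend and voom fits were tested on simulated data. The named genes are the 4 members and, for each, the tested gene with the nearest profile. Members and lists were chosen with earlier results of these data known. Lists of chlorophyll, Kranz and cell type marker genes needed names for the identifiers and were not tested, since 0 matched. No sequences of these genes are shown, as none were at hand.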

Additional observations from a re-analysis of the deposited data

How the results depend on the processing

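The rise of scr1h kept its direction and its call under all 28 other settings, and the direction of glk1, of both paralog ratios and of both summed levels held under every setting that gave a value. For g2 the direction held, and the call appeared only with voom on recovered reads at the filter of 1 FPKM (log2 fold change 0.20, adjusted p = 0.0351), while with no filter voom gave an adjusted p of 0.059, and over all settings the adjusted p ran from 0.0351 to 0.464. For scr1 the sign turned under scaling by summed gene reads (0.029), voom (0.035, and again 0.035 with no filter), without WT replicate 3 (0.031) and without GARR2KO replicate 3 (0.091), with the same values where these were combined with no filter; none of these passed the test, and the cause was not tested. Leaving out each library gave log2 fold changes of 0.07 to 0.18 for g2 and -0.23 to -0.14 for glk1 with no filter. They ran from -0.089 to 0.091 for scr1 and from 0.37 to 0.43 for scr1h. These fits called 7943 to 8847 genes, against 9517 in the main fit. With no filter they called 7636 to 8601 genes, against 9635 with all libraries. The mean log2 paralog ratio then ran from 4.94 to 5.23 for g2 over glk1 and from -2.08 to -1.94 for scr1 over scr1h, where 5 libraries cannot go below an exact p of 0.0625, and its difference between genotypes from 0.71 to 1.05 and from -0.53 to -0.33; with 1 FPKM added to both genes these differences were 0.33 and -0.40. Same-numbered libraries deviated together with correlations of -0.051, -0.046 and 0.049, so the numbers were not treated as pairs; with the replicate block the log2 fold change was 0.14 for g2 (adjusted p = 0.113), -0.01 for scr1 and 0.39 for scr1h (adjusted p = 0.00445), and 8963 genes were called. The settings that combine no filter with another choice were added after glk1 was seen to lie below the filter, and a minimum of 5 FPKM gave no value for scr1. Depth limits glk1, where 1 read was worth 0.0268 to 0.0316 FPKM.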
